A study of Mus musculus with 18 samples.

Results

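The Fat, Dachsous and Celsr proteins are giant cadherins, and the mouse genome holds 9 of their genes: *Fat1*, *Fat2*, *Fat3*, *Fat4*, *Dchs1*, *Dchs2*, *Celsr1*, *Celsr2* and *Celsr3*. They were picked out by symbol from the 55153 genes of the RNA-seq tables and followed through all 18 libraries of the study. The family was proposed because *Fat3* was known to be higher in the RNA of *Fto*-deleted cortices, so the RNA-seq values of the *Fto* knockout against the control are a description. They carry no *P* value, and the counts of calls in that comparison are given to place the members among all genes and are no test of the family.

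The libraries came from the cerebral cortex of mouse embryos at embryonic day 15.5 (E15.5), labelled as strain C57BL/6. The Ctrl group was wild type, the *F*-cKO group had the genotype *Fto*(f/f, *Emx1*-cre) for deletion of the m6A demethylase Fto, and the *M*-cKO group had the genotype *Mettl3*(f/f, *Emx1*-cre) for deletion of the m6A methyltransferase Mettl3. Both floxed lines were on a mixed strain background before the cross to *Emx1*-Cre mice, and the *Emx1* promoter drives Cre in the lineage of cortical excitatory neurons and glia, so cortical cells of other lineages keep both genes. Each group had 3 libraries of RNA-seq, which measures RNA abundance, and 3 of Ribo-seq, which counts the RNA fragments protected by ribosomes (ribosome footprints). The labels call the libraries biological repeats and do not tie them to litters, while the study's Ribo-seq methods carry an abbreviation that may mean a shared litter, so the *P* values measure the spread between these libraries.

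These cadherins carry many more extracellular cadherin repeats than the classical cadherins of adherens junctions. Fat4 and Dchs1 bind each other across neighbouring cells as receptor and ligand, a pair known to restrain the growth of neural progenitors and to be linked to the Hippo pathway, whose co-activator Yap1 works through Tead transcription factors. Celsr1, Celsr2 and Celsr3 are the mammalian Flamingo proteins, seven-pass adhesion receptors of planar cell polarity that act with Frizzled and Vangl proteins in progenitor, ciliary and axon guidance functions.

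*Fat3*, *Fat4* and *Celsr2* were higher in every *F*-cKO RNA-seq library than in any Ctrl library, and RefSeq promoter windows were at hand for them. The 250 bases before the RefSeq start site (build GRCm38.p6, 5′ to 3′ on the gene's strand) are shown because these genes moved together in RNA, with each CpG dinucleotide in capitals.
Fat3 (chr9:16502055-16502304, minus strand): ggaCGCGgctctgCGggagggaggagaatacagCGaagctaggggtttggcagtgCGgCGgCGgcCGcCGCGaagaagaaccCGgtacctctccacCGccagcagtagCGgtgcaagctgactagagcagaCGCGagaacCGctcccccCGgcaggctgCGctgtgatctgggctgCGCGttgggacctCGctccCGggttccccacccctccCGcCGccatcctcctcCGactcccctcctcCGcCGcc
Fat4 (chr3:38886690-38886939, plus strand): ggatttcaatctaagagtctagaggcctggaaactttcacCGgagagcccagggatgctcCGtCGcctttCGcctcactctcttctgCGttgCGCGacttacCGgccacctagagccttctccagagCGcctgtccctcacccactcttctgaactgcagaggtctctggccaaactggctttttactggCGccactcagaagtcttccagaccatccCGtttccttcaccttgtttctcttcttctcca
Celsr2 (chr3:108415580-108415829, minus strand): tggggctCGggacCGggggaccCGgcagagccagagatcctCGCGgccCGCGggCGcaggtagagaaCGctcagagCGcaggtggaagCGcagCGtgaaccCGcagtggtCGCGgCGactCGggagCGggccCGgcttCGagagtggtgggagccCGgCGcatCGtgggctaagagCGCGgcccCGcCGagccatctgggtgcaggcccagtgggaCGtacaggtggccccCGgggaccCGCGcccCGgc
The *Fat3* window held 27 CpG, the *Celsr2* window 32 and the *Fat4* window 11, and the median over the 32851 windows of the RefSeq table was 6. The *Fat3* and *Celsr2* windows were also rich in G and C, at 70.4% and 75.2% against a median of 52.4%, and the *Fat4* window was near that median at 54.8%. These start sites lay 627 bases (*Fat3*), 2273 bases (*Fat4*) and 490 bases (*Celsr2*) inside the outermost limit of the gene. The Tead motif GGAATG was searched on both strands, where the other strand reads CATTCC. It is in none of the 3 windows, and 12.6% of all windows hold it. The GC box GGGCGG (other strand CCGCCC) and the TATA box TATAAA (other strand TTTATA) are in none of the 3 either, against 32.7% and 12.4% of all windows. The listed *Fat1* window held 2 CpG and 1 Tead motif 102 bases before its start site, but that site lies 17.1 kb inside the gene and the window is not shown.

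The RNA-seq libraries held 18504094 to 22592406 gene reads and the Ribo-seq libraries 10973699 to 35853227. The cortical markers *Emx1*, *Emx2*, *Lhx2* and *Neurod6* were present in every library, with a summed RNA-seq level of 417 to 456 FPKM (fragments scaled by gene length and library depth) in Ctrl, 483 to 526 FPKM in *F*-cKO and 503 to 517 FPKM in *M*-cKO, so both knockouts lay above Ctrl. In footprints the same markers summed to 561 to 680 RPKM (reads scaled the same way) in Ctrl, to 402 to 543 RPKM in *F*-cKO, wholly below Ctrl, and to 404 to 608 RPKM in *M*-cKO, overlapping Ctrl. *Fto* RNA was 8.37 to 11.2 FPKM in Ctrl libraries and 3.26, 7.56 and 2.43 FPKM in those labelled *F*-cKO replicates 1, 2 and 3, so replicate 2 was near the control range. *Fto* footprints were 2.11 to 4.04 RPKM in all 3 *F*-cKO Ribo-seq libraries, compared to 17.6 to 25.9 RPKM in Ctrl. *Mettl3* footprints were 6.02 to 6.78 RPKM in *M*-cKO and 9.16 to 9.93 RPKM in Ctrl, and *Mettl3* RNA was higher in *M*-cKO (7.82 to 8.61 FPKM) than in Ctrl (5.07 to 6.43 FPKM), where a gene-level count cannot resolve the deleted exons. The Ribo-seq library labelled *F*-cKO replicate 2 stood far apart in the cadherins, and the tests of *F*-cKO footprints are given with and without it.

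In Ctrl RNA the Fat4 and Dchs1 pair and the polarity receptors *Celsr1* and *Celsr2* had the highest levels of the family. *Dchs1*, the ligand of Fat4, had the highest level at 29.4 ± 1.95 FPKM (SD, n = 3). *Celsr2* followed at 19.5 ± 1.78 FPKM, *Fat4* at 14.2 ± 1.10 FPKM and *Celsr1* at 12.2 ± 2.96 FPKM, and the ranges of *Fat4* (13.0 to 15.1) and *Celsr1* (8.78 to 14.3) overlapped. *Fat1*, a regulator of actin at cell protrusions and of the apical junctions of neural progenitors, was at 5.43 ± 0.627 FPKM. *Fat3*, known for shaping the dendrites of retinal neurons, was at 4.30 ± 0.292 FPKM, below every Ctrl value of *Fat1*. *Dchs2* was near the detection limit at 0.112 ± 0.0252 FPKM, with 19 to 30 reads a library. *Fat2*, best known from cerebellar granule cells, had 2 to 16 reads in the 9 RNA-seq libraries, and no filter on low counts passed it. *Celsr3*, a receptor needed for axon tract formation, was listed at 0 RNA-seq reads in 8 libraries and at 2 reads in *M*-cKO replicate 3.

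*Celsr3* nevertheless had 332 to 1560 ribosome footprints a library. Its Ctrl level of 1.92 ± 0.0652 RPKM (SD, n = 3) lay within the range of the other members in Ribo-seq, between *Celsr2* (2.86 ± 0.175 RPKM) and *Fat1* (1.85 ± 0.316 RPKM). *Fat1*, at a similar footprint level, had 1562 to 2562 RNA-seq reads a library. The cause of the RNA-seq value of 0 was not tested, and no footprint-to-RNA ratio is given for *Celsr3*. RefSeq places the non-coding gene *Gm35025* over the start of *Celsr3*, and that gene also had 0 RNA-seq reads. RefSeq likewise overlaps *Fat4* with *C230034O21Rik* (773 RNA-seq reads over 9 libraries), *Dchs2* with *Gm10710* (23 reads) and *Celsr2* with *Gm52630*, so reads in the shared stretches are uncertain.

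The first comparison asked how loss of the demethylase changed the RNA of the family. In *F*-cKO cortices *Celsr1* and *Fat3* were about 2 times their Ctrl level, and *Celsr2*, *Fat4* and *Fat1* rose by less. *Fat3* measured 4.62, 4.24 and 4.05 FPKM in the 3 Ctrl libraries and 7.57, 7.97 and 9.37 FPKM in the *F*-cKO libraries. *Celsr1* measured 13.4, 14.3 and 8.78 FPKM in Ctrl and 21.2, 24.7 and 26.5 FPKM in *F*-cKO. Both genes were higher in all 3 *F*-cKO libraries, and for *Celsr1* the lowest library of all was Ctrl replicate 3.

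*Fat4* measured 14.5, 15.1 and 13.0 FPKM in Ctrl and 19.7, 20.1 and 21.0 FPKM in *F*-cKO. *Celsr2* measured 20.2, 20.9 and 17.5 FPKM in Ctrl and 28.6, 29.7 and 29.3 FPKM in *F*-cKO. *Fat1* measured 5.76, 4.71 and 5.82 FPKM in Ctrl and 6.27, 7.04 and 7.58 FPKM in *F*-cKO. The groups did not overlap for any of these 3 genes, and the *Fat1* groups came closest to touching. *Dchs1*, the partner of Fat4, overlapped between groups, with 28.5, 31.7 and 28.1 FPKM in Ctrl and 33.8, 32.8 and 30.5 FPKM in *F*-cKO.

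**Figure D1:**
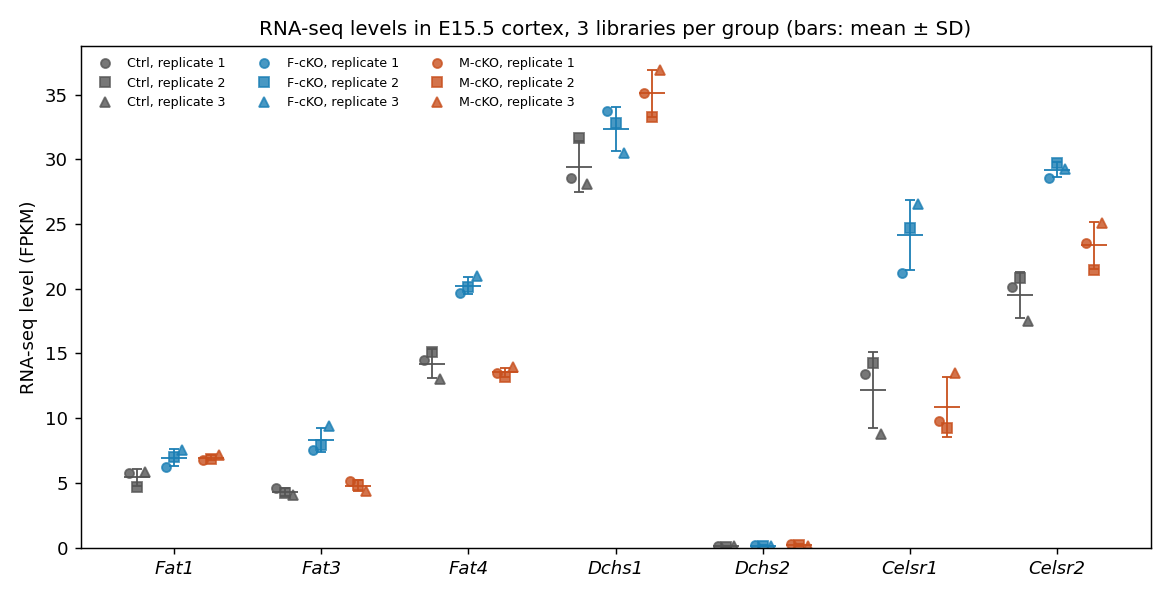
RNA-seq level (FPKM, linear axis) of 7 family members in each library, with group mean ± SD of 3 libraries as bars. *Fat3*, *Fat4*, *Celsr1*, *Celsr2* and *Fat1* lie higher in all *F*-cKO libraries than in all Ctrl libraries, and *Fat3*, *Fat4*, *Celsr1* and *Celsr2* lie lower in *M*-cKO than in *F*-cKO.

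On the log2 scale of the model fit (edgeR, fitted across all genes) the *F*-cKO minus Ctrl difference was 0.98 ± 0.16 (SE) for *Celsr1*, 0.94 ± 0.09 for *Fat3*, 0.57 ± 0.07 for *Celsr2*, 0.50 ± 0.07 for *Fat4* and 0.35 ± 0.10 for *Fat1*. *Dchs1* differed by 0.12 ± 0.07 and *Dchs2* by 0.39 ± 0.33. Of the 7 members with enough reads, 5 were called higher and 0 lower at an adjusted *P* under 0.05, beside 11.5% of all 16944 genes tested called higher and 9.57% lower (21.1% in either direction). The same 5 had groups that did not overlap, beside 21.6% of all genes with every *F*-cKO library higher and 19.4% with every one lower. The family was proposed from this contrast, so nothing is read from these counts. Without the library labelled *F*-cKO replicate 2, in which *Fto* RNA was near the control range, 4 members were called higher, beside 6.62% of all genes higher and 4.68% lower, and *Fat1* was the member no longer called. *Fat1* also left the call without Ctrl replicate 1, Ctrl replicate 2 or *F*-cKO replicate 3. In the library labelled *F*-cKO replicate 2 the members themselves lay with *F*-cKO, at 7.97 FPKM for *Fat3* and 24.7 FPKM for *Celsr1*.

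The members are long genes, with effective lengths (the length implied by counts and FPKM) of 10.9 kb for *Dchs2* to 21.7 kb for *Fat3*, and in *F*-cKO RNA the calls moved with gene length. Of the 1475 tested genes over 10 kb, 32.5% were called higher and 7.19% lower, with a median log2 difference of 0.14. Of the 3513 genes under 2 kb, 2.56% were called higher and 11.7% lower, with a median of −0.13. The median of the 7 members was 0.50, and of them *Dchs1* (0.12) alone lay below the median of the long genes. The family was proposed from this contrast, so nothing is read from where the members lie. In *M*-cKO 17.8% of the genes over 10 kb were called higher and 20.8% lower, with a median of −0.03, and under 2 kb these were 9.22% and 9.97%, with a median of −0.04. The part of gene length in the members' differences was not tested.

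**Figure D2:**
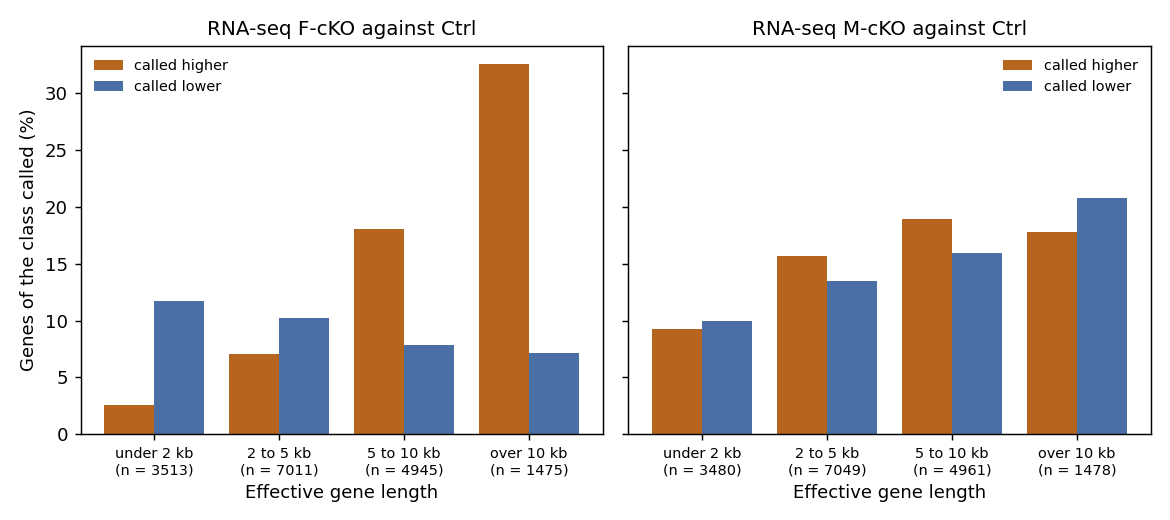
Percentage of tested genes called higher or lower (edgeR, adjusted P under 0.05) in RNA-seq, by effective gene length, for *F*-cKO (left) and *M*-cKO (right) against Ctrl. In *F*-cKO the share called higher runs from 2.56% under 2 kb to 32.5% over 10 kb, and in *M*-cKO it is 9.22% and 17.8%.

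Marker levels moved as well. The summed RNA level of 5 intermediate progenitor markers was 242 to 295 FPKM in *F*-cKO, 213 to 252 FPKM in *M*-cKO and 116 to 195 FPKM in Ctrl, with all 5 detected. Within Ctrl it was lowest in replicate 3 (116 FPKM), the library with the lowest *Celsr1*. The summed level of 8 radial glia markers was 721 to 783 FPKM in *F*-cKO, 762 to 851 FPKM in Ctrl and 560 to 602 FPKM in *M*-cKO, and their footprints were 1910 to 2160 RPKM in Ctrl and 1040 to 1480 RPKM in *M*-cKO. The 4 choroid plexus markers, of a tissue next to the cortex, ranged from 69.3 to 800 FPKM within Ctrl and from 272 to 390 FPKM in *F*-cKO. Endothelial markers (5) summed to 46.8 to 50.7 FPKM in Ctrl and 34.6 to 39.9 FPKM in *F*-cKO, and meningeal markers (5) to 10.5 to 20.3 FPKM and 2.35 to 8.98 FPKM. Interneuron markers (6) summed to 118 to 159 FPKM in *M*-cKO RNA and 85.4 to 86.5 FPKM in Ctrl RNA, and in footprints to 62.2 to 118 RPKM and 37.8 to 56.6 RPKM. Cajal-Retzius markers (4) overlapped in RNA and were lower in *M*-cKO footprints, at 31.1 to 43.8 RPKM against 52.1 to 66.0 RPKM in Ctrl. The 1 ependymal marker was at 6.57 to 7.28 FPKM in *M*-cKO and 4.20 to 6.56 FPKM in Ctrl, and the 4 microglial and 8 excitatory neuron markers overlapped between each knockout and Ctrl in RNA. The part of these cell types in the members' levels was not tested. From whole-tissue libraries alone, fewer cells of a type and less RNA per cell cannot be told apart. In stained E15.5 sections the study counted unchanged numbers of Sox2 and Pax6 radial glia and more Tbr2 intermediate progenitors in *M*-cKO. In *F*-cKO sections it found Sox2 and Tbr2 cells unchanged.

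The second comparison asked how loss of the methyltransferase changed the same RNAs. In *M*-cKO cortices *Fat1*, *Dchs1* and *Celsr2* rose by small amounts, and *Fat4* and *Celsr1* lay near or below their Ctrl level. *Fat1* measured 6.81, 6.85 and 7.15 FPKM, above all 3 Ctrl libraries, a log2 difference of 0.34 ± 0.08 (SE, adjusted *P* = 0.00813, quasi-likelihood test of edgeR, Benjamini-Hochberg adjusted over all genes). *Dchs1* measured 35.1, 33.3 and 36.9 FPKM, also above all Ctrl libraries, with a difference of 0.24 ± 0.07 (adjusted *P* = 0.0187, edgeR). *Celsr2* measured 23.5, 21.5 and 25.1 FPKM and differed by 0.25 ± 0.08 (adjusted *P* = 0.033, edgeR). These were 3 of 7 members called higher and 0 called lower, beside 15.5% of all 16968 genes higher and 14.1% lower (29.6% in either direction). In edgeR 4 members had an unadjusted *P* under 0.05, and DESeq2 also called 3 higher and 0 lower. Without Ctrl replicate 1 the count was 1, beside 12.3% of all genes higher and 10.2% lower. Without Ctrl replicate 3 it was also 1, beside 11.8% higher and 8.65% lower, and *Fat1* was the member called each time. *Celsr2* also left the call without *M*-cKO replicate 1 or replicate 3.

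*Dchs2* was also higher in all *M*-cKO libraries, at 0.253, 0.184 and 0.151 FPKM against 0.0831 to 0.129 FPKM, and its difference of 0.80 ± 0.28 missed the threshold (adjusted *P* = 0.0519, edgeR), which it passed with no filter on low counts and without *M*-cKO replicate 3. *Fat3* measured 5.18, 4.87 and 4.35 FPKM in *M*-cKO, overlapping Ctrl, with a difference of 0.15 ± 0.08 (adjusted *P* = 0.168, edgeR), and was called higher (0.22) without *M*-cKO replicate 3. *Fat4* measured 13.5, 13.2 and 13.9 FPKM and differed by −0.08 ± 0.07. *Celsr1* measured 9.79, 9.26 and 13.5 FPKM and differed by −0.17 ± 0.17, with a 95% interval of −0.51 to 0.16. In total 4 of the 7 members had *M*-cKO groups wholly above Ctrl, beside 22.9% of all genes above and 21.4% below. With 3 libraries against 3 the exact permutation test cannot go below *P* = 0.1, the value it gave for each of those 4.

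Set against each other, the knockouts parted at *Fat3*, *Fat4*, *Celsr1* and *Celsr2*. *M*-cKO minus *F*-cKO was −1.16 ± 0.14 (log2, SE) for *Celsr1*, −0.80 ± 0.09 for *Fat3*, −0.59 ± 0.06 for *Fat4* and −0.33 ± 0.07 for *Celsr2*, and these 4 of 7 members were called lower in *M*-cKO by edgeR, beside 14.3% of all 16802 genes lower and 13.1% higher (27.4% in either direction). All *M*-cKO libraries lay below all *F*-cKO libraries for these 4, beside 21.4% of all genes lower and 21.3% higher in this way. *Fat1* (−0.02 ± 0.08), *Dchs1* (0.11 ± 0.07) and *Dchs2* (0.39 ± 0.31) were not called. Genes over 10 kb were called lower in 37.2% and higher in 5.16% in this contrast. It uses the same *F*-cKO libraries that drew attention to *Fat3*, so it is no independent support.

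Across the 9 RNA-seq libraries *Fat3*, *Fat4*, *Celsr1* and *Celsr2* varied together, with Pearson's r between 0.84 and 0.97 for each pair in log2 CPM (counts scaled to library depth). *Dchs1* had r = 0.00 with its receptor *Fat4* and was nearest to *Celsr2* among the members (r = 0.50). The libraries share their group differences, and the values are a description. Among 13291 genes, those most like *Fat3* were *Trip12* (r = 0.987), *Bptf* (0.986) and *Ctdspl2* (0.986). Those most like *Fat4* were *Hint3* (0.990), *Pcnt* (0.988) and *4833418N02Rik* (0.984), and *Celsr1* was most like *Ttyh3* (0.985), *Heg1* (0.979) and *Hint3* (0.976). *Celsr2* was most like *Numa1* (0.987), *Ptprf* (0.986) and *Rbm14* (0.983). *Dchs1* was most like *Gorasp1* (0.978), *Zswim8* (0.968) and *Szrd1* (0.965), and *Fat1* had the weakest best match, *Specc1* (0.931).

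Ribosome footprints gave another picture of *F*-cKO. Of the 9 members, 8 could be tested, since *Fat2* has blank footprint counts in 8 libraries, and the excess of *F*-cKO lay in 1 library, replicate 2. *Fat3* measured 1.21, 1.73 and 2.10 RPKM in Ctrl and 2.36, 13.8 and 1.63 RPKM in *F*-cKO replicates 1, 2 and 3. *Fat4* measured 3.38, 3.89 and 3.71 RPKM in Ctrl and 3.85, 34.6 and 3.31 RPKM in *F*-cKO. *Celsr1* measured 1.47, 1.55 and 1.60 RPKM in Ctrl and 2.24, 17.5 and 1.33 RPKM in *F*-cKO. Replicate 2 alone was far above every other library, and the remaining pair lay above and within the Ctrl range for *Fat3*, within and below it for *Fat4*, and above and below it for *Celsr1*.

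The same library was high for *Dchs1* (32.7 RPKM, other libraries 4.81 to 6.29), *Celsr2* (25.2 RPKM, others 2.66 to 3.78), *Fat1* (16.8 RPKM, others 1.60 to 3.13) and *Celsr3* (12.8 RPKM, others 1.71 to 2.50). *Dchs2* was the exception, at 0.203 RPKM in that library against 0.0994 and 0.185 RPKM in *F*-cKO replicates 1 and 3. Counted together, the family summed to 1978 CPM in *F*-cKO replicate 2 and to 197 to 273 CPM in the other 8 Ribo-seq libraries.

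**Figure D3:**
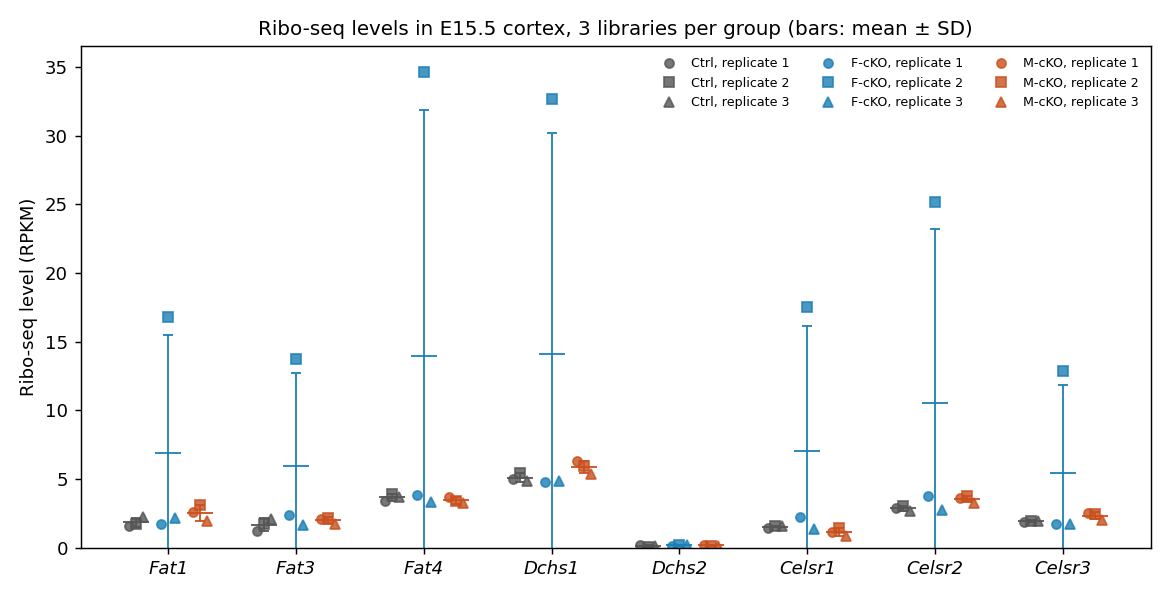
Ribo-seq level (RPKM, linear axis) of 8 family members in each library, with group mean ± SD of 3 libraries as bars, cut at 0. *F*-cKO replicate 2 (blue squares) lies far above all other libraries for every member but *Dchs2*, and without it the groups lie close together.

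In log2 CPM, replicate 2 lay above the mean of *F*-cKO replicates 1 and 3 by 2.97 (*Dchs1*) to 3.55 (*Celsr1*) for 7 members and by 0.74 for *Dchs2*. Those 7 of 8 members were at least 4 times as high as in both other *F*-cKO libraries, compared to 8.35% of 14326 genes, and the median gene differed by −0.05. Of other cadherins, 6 of 21 classical cadherins and catenins and 4 of 12 non-clustered protocadherins were past the same limit. So were 6 of 27 planar cell polarity genes, 1 of 34 Fat, Dachsous and Hippo effectors and 0 of 12 Ena/VASP and WAVE genes. The 5 endothelial markers summed to 83.3 RPKM in replicate 2 and to 4.09 to 8.38 RPKM in all other libraries. Meningeal markers (5) were also highest in it, at 43.1 RPKM against 1.70 to 23.2 RPKM, as were microglial markers (4), at 15.8 RPKM against 6.24 to 9.76 RPKM. The 8 excitatory neuron markers summed to 1910 RPKM in it, compared to 3570 to 4520 RPKM, and it was the shallowest library at 10973699 reads. The part of these in the members' footprints was not tested.

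With all libraries the *F*-cKO minus Ctrl differences in footprints were positive for all 8 members, from 0.53 ± 0.53 (log2, SE) for *Dchs2* to 2.34 ± 1.01 for *Celsr1*. The edgeR test called 0 of 8 (smallest adjusted *P* = 0.73), with 0 at an unadjusted *P* under 0.05, and DESeq2 called 0. It also called 0.0% of all 14335 genes, with 318 genes at an unadjusted *P* under 0.05. No member had groups without overlap, beside 3.04% of genes wholly higher and 4.13% wholly lower. Without replicate 2 the differences were 0.21 ± 0.26 for *Fat3*, 0.18 ± 0.22 for *Celsr1*, 0.16 ± 0.16 for *Celsr2* and 0.04 ± 0.19 for *Fat1*. They were −0.06 ± 0.13 for *Fat4*, −0.11 ± 0.12 for *Dchs1* and −0.18 ± 0.13 for *Celsr3*, and 0 of 8 were called (smallest adjusted *P* = 0.875, edgeR), beside 0.0% of all genes higher and 0.00698% lower. The 95% interval without replicate 2 lay below the RNA difference for *Fat4* (−0.31 to 0.19), *Fat3* (−0.30 to 0.72), *Celsr1* (−0.25 to 0.61) and *Celsr2* (−0.15 to 0.47). It included the RNA difference for *Fat1* (−0.33 to 0.41), *Dchs1* (−0.35 to 0.13) and *Dchs2* (−0.73 to 1.31). The intervals rest on a normal approximation and are narrow for so few libraries. The RNA differences carry their own error and come from the contrast that led to the family, so these intervals are a description.

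**Figure D4:**
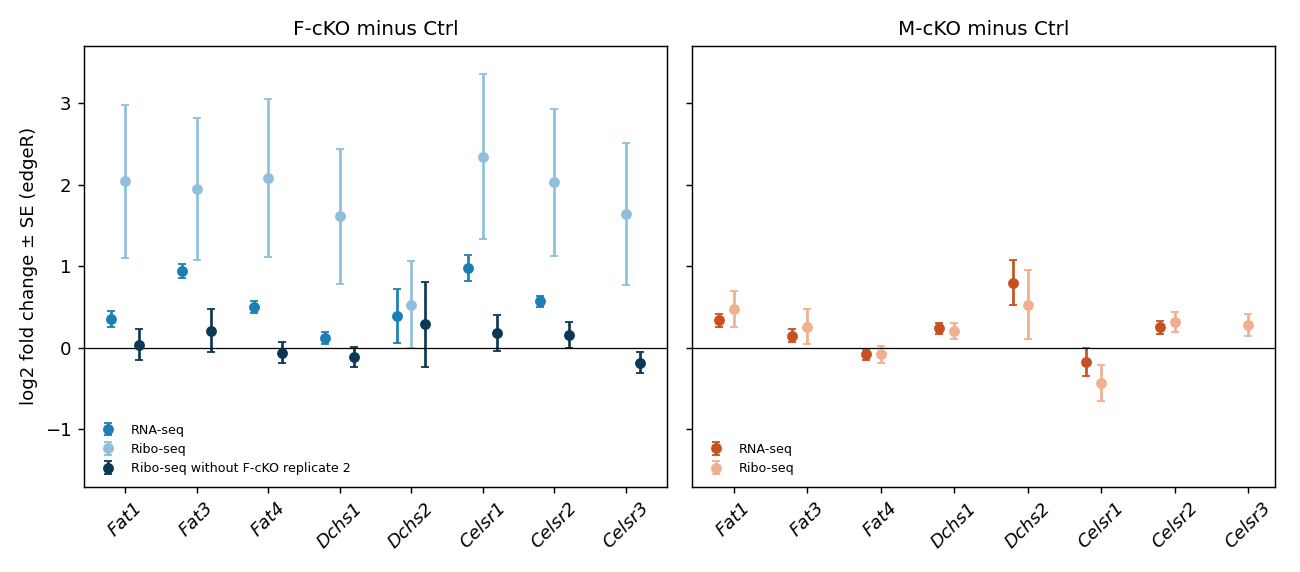
Log2 fold change ± SE from the edgeR fits for each member, in *F*-cKO (left) and *M*-cKO (right) against Ctrl. In *F*-cKO the Ribo-seq values lie between 0.53 and 2.34 with wide errors, and between −0.18 and 0.29 without replicate 2, whereas RNA-seq values lie between 0.12 and 0.98. In *M*-cKO the RNA-seq values lie between −0.17 and 0.80 and the Ribo-seq values between −0.43 and 0.53.

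In *M*-cKO footprints no member passed the test, and *Celsr2* came nearest to it. *Celsr2* measured 3.60, 3.76 and 3.27 RPKM, above all 3 Ctrl libraries (2.91, 3.00 and 2.66 RPKM), a log2 difference of 0.32 ± 0.12 (adjusted *P* = 0.0983, edgeR). *Celsr3* was also above all Ctrl libraries, at 2.50, 2.42 and 2.03 RPKM against 1.85, 1.96 and 1.96 RPKM, with a difference of 0.28 ± 0.13 (adjusted *P* = 0.161, edgeR). *Celsr1* was below all of them, at 1.14, 1.44 and 0.813 RPKM, with a difference of −0.43 ± 0.22 (adjusted *P* = 0.218, edgeR). The 2 members wholly above and the 1 wholly below Ctrl stand beside 17.6% and 20.4% of all genes.

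*Fat1* differed by 0.48 ± 0.22, *Fat3* by 0.26 ± 0.21, *Dchs1* by 0.21 ± 0.10, *Dchs2* by 0.53 ± 0.42 and *Fat4* by −0.08 ± 0.10 in *M*-cKO footprints. In the edgeR fit 0 of 8 members were called, beside 7.13% of 14314 genes called higher and 7.5% called lower (14.6% in either direction). That share rests on single libraries and was 0.804% higher and 0.433% lower without Ribo-seq Ctrl replicate 2, and 9.09% and 8.67% without *M*-cKO replicate 3. *Celsr2* alone had an unadjusted *P* under 0.05, and DESeq2 called 0 of 8. Between *M*-cKO and *F*-cKO footprints edgeR and DESeq2 also called 0 of 8, with 1 at an unadjusted *P* under 0.05 in edgeR, beside 0.0% of 14262 genes in either direction. The groups did not overlap for 8.02% of all genes higher and 5.64% lower in that contrast. With all libraries the difference ran from −2.75 ± 1.04 for *Celsr1*, through −2.14 ± 0.96 for *Fat4* and −1.67 ± 0.84 for *Fat3*, to 0.03 ± 0.44 for *Dchs2*. Without Ribo-seq *F*-cKO replicate 2 it ran from −0.59 ± 0.33 for *Celsr1*, through 0.00 ± 0.15 for *Fat4* and 0.07 ± 0.22 for *Fat3*, to 0.49 ± 0.19 for *Celsr3*. Then edgeR again called 0 of 8, with *Celsr3* alone at an unadjusted *P* under 0.05, beside 0.035% of all genes higher and 0.0% lower.

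Relative to their RNA, the abundant members had few footprints. The ratio of Ribo-seq RPKM to RNA-seq FPKM, a measure of translational efficiency (TE), was 0.126 for *Celsr1*, 0.146 for *Celsr2* and 0.173 for *Dchs1* in Ctrl (ratio of group means). It was 0.257 for *Fat4*, 0.340 for *Fat1* and 0.391 for *Fat3*. All 6 lay under the median of 0.755 over 13036 genes, with 10.9% of genes below *Celsr1* and 32.0% below *Fat3*. *Dchs2* lay above it at 1.04, on few reads. By replicate number the Ctrl ratio was 0.174, 0.172 and 0.174 for *Dchs1*, the steadiest member, and 0.109, 0.109 and 0.182 for *Celsr1*. Both assays were scaled by the length of the whole gene model, so footprints on the coding part are spread over that length.

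**Figure D5:**
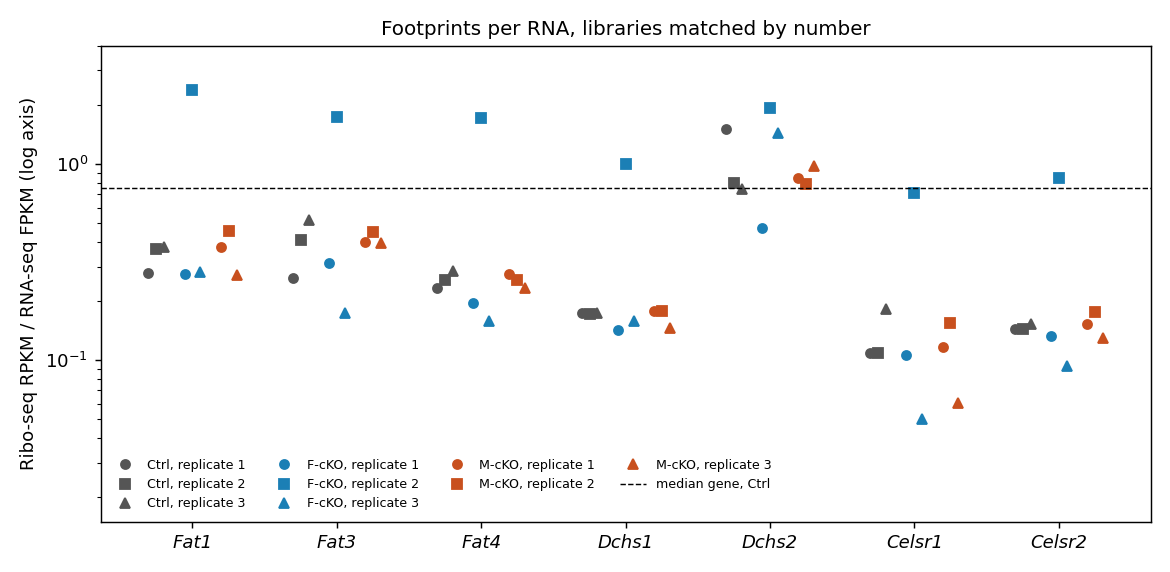
Ratio of Ribo-seq RPKM to RNA-seq FPKM (log axis) for 7 members, in libraries of the same group and replicate number, which need not share tissue. The dashed line is the Ctrl median of 13036 genes (0.755), and apart from *F*-cKO replicate 2 and *Dchs2* all ratios lie below it.

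In *M*-cKO the log2 differences of the members in TE, from the joint fit of both assays, ran from −0.25 to 0.15 over 7 members. *Fat4* had one of the tightest estimates, 0.02 ± 0.11 with a 95% interval of −0.21 to 0.24, and *Celsr1* a wide one, −0.25 ± 0.32 with an interval of −0.88 to 0.37. The edgeR test of the interaction called 0 of 7 members, with 0 at an unadjusted *P* under 0.05, and DESeq2 called 0, beside 0.928% of 14328 genes called higher and 1.19% lower (2.11% in either direction). With 1 library left out these shares ran from 0.0488% to 3.16% higher and from 0.0488% to 3.76% lower, highest without Ribo-seq *M*-cKO replicate 3. With low counts filtered within each assay, a setting chosen after seeing the data, 0 of 7 were called, beside 1.65% higher and 1.41% lower.

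In *F*-cKO the TE differences were positive for all 7 members with all libraries, from 0.13 ± 0.65 (*Dchs2*) to 1.69 ± 1.02 (*Fat1*), and negative for all 7 without Ribo-seq replicate 2. They were then −0.81 ± 0.30 for *Celsr1*, −0.73 ± 0.28 for *Fat3*, −0.56 ± 0.13 for *Fat4*, −0.41 ± 0.16 for *Celsr2*, −0.30 ± 0.22 for *Fat1* and −0.23 ± 0.11 for *Dchs1*. The 4 genes with the lowest values are those whose RNA difference was largest in *F*-cKO, and both values contain the same RNA-seq libraries. In either setting edgeR called 0 of 7 members and 0.0% of all genes. With all libraries 0 members had an unadjusted *P* under 0.05 and DESeq2 called 0. Without replicate 2 the unadjusted *P* of *Fat3*, *Fat4*, *Celsr1* and *Celsr2* was under 0.05, and the smallest adjusted *P* was 0.154 (*Fat4*, edgeR). This contrast contains the RNA-seq libraries from which the family was proposed. A gene picked for high *F*-cKO RNA is drawn towards a lower TE, and replicate 2 was left out after its values were seen. The TE values and *P* values of *F*-cKO are therefore a description and no test of the members.

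The partners of these receptors were read from lists chosen with earlier results of these data known. Of 35 tested Fat, Dachsous and Hippo effectors, 16 were called higher and 4 lower in *F*-cKO RNA, and 12 higher and 3 lower in *M*-cKO RNA. These are 45.7% higher and 11.4% lower in *F*-cKO, beside 11.5% and 9.57% of all genes, and 34.3% and 8.57% in *M*-cKO, beside 15.5% and 14.1%. In *M*-cKO the co-activator *Yap1* rose by 0.95 ± 0.11 (log2, SE), the junction protein *Dlg5* by 0.46 ± 0.05 and the Lats inhibitor *Limd1* by 1.14 ± 0.14. All 3 were also called higher in *F*-cKO RNA, at 0.68 for *Yap1*, 0.19 for *Dlg5* and 0.60 for *Limd1*. *Frmd6*, an upstream activator of the Hippo kinases, fell by 0.72 ± 0.09, the Yap1 target *Ctgf* by 1.20 ± 0.20 and *Lix1* by 0.40 ± 0.09. In *F*-cKO the apical scaffold genes *Mpdz* (0.60 ± 0.08) and *Mpp5* (0.60 ± 0.09) and the Lats co-factor *Mob1b* (0.38 ± 0.07) rose. *Ctgf* (−1.20 ± 0.23), the atrophin gene *Atn1* (−0.35 ± 0.08) and *Frmd6* (−0.33 ± 0.09) fell there. *Cyr61*, also a Yap1 target of this list and named after its values were seen, was called in neither knockout. Its RNA differed by −0.14 ± 0.13 in *M*-cKO and by 0.09 ± 0.11 in *F*-cKO. The median RNA difference of this list was 0.19 for *F*-cKO, and 0.16 for *M*-cKO, beside −0.01 over all genes tested in each. In *M*-cKO footprints 4 of 34 were called higher and 4 lower (11.8% each, beside 7.13% and 7.5% of all genes).

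Of the planar cell polarity genes, 4 of 27 were called higher and 4 lower in *M*-cKO RNA (14.8% each), near the 15.5% and 14.1% of all genes. In *F*-cKO RNA 6 of 26 were called higher and 2 lower (23.1% and 7.69%, beside 11.5% and 9.57% of all genes). *Vangl2*, a core polarity partner of Celsr1, rose in the RNA of *M*-cKO (0.73 ± 0.08) and of *F*-cKO (0.65 ± 0.08) and in *M*-cKO footprints (0.65 ± 0.11). *Ptk7*, a polarity co-receptor, rose in both knockouts (0.39 ± 0.10 in *M*-cKO RNA, 0.34 ± 0.08 in *F*-cKO RNA), and the Frizzled receptor *Fzd3* rose in *F*-cKO (0.52 ± 0.06). In *M*-cKO the cytoplasmic polarity gene *Prickle1* fell by 0.51 ± 0.09 in RNA and by 0.44 ± 0.11 in footprints, and the formin *Daam2* fell by 0.57 ± 0.10 in RNA. *Dvl1*, a Dishevelled adaptor, had lower RNA in both knockouts (*F*-cKO −0.28 ± 0.07, *M*-cKO −0.20 ± 0.06). Its *M*-cKO footprints (0.82 ± 0.20) and TE (1.03 ± 0.20) were higher, and it was the 1 gene of this list called in TE.

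Of the Ena/VASP and WAVE genes, actin regulators that Fat1 and Fat3 can bind, *Enah* rose in the RNA of both knockouts (0.36 ± 0.05 for *F*-cKO, 0.32 ± 0.06 for *M*-cKO) and in *M*-cKO footprints (0.48 ± 0.09). The WAVE subunit *Nckap1* fell in *M*-cKO by 0.39 ± 0.07 in RNA and by 0.72 ± 0.12 in footprints. In all, 2 of 12 were called higher and 1 lower in *F*-cKO RNA, and 2 higher and 2 lower in *M*-cKO RNA. The *F*-cKO shares were 16.7% and 8.33%, beside 11.5% and 9.57% of all genes, and the *M*-cKO shares 16.7% each, near the 15.5% and 14.1% of all genes. Of 24 classical cadherins and catenins, 6 were called higher and 4 lower in *F*-cKO RNA (25% and 16.7%), with the smallest adjusted *P* for *Cdh4* (0.56 ± 0.07) and *Jup* (−0.45 ± 0.07) and larger falls for *Cdh9* (−1.05 ± 0.22) and *Cdh1* (−1.99 ± 0.58), the latter named for its size after its value was seen. In *M*-cKO RNA 5 were called higher and 7 lower (20.8% and 29.2%). Among those higher, *Cdh4* (0.65 ± 0.08) and *Cdh22* (1.59 ± 0.19) shared the smallest adjusted *P*, and among those lower *Cdh8* (−0.56 ± 0.09) had it. Of 12 non-clustered protocadherins, 3 were called higher and 1 lower in *F*-cKO RNA (25% and 8.33%) and 3 higher and 4 lower in *M*-cKO RNA (25% and 33.3%), where *Pcdh20* fell by 1.11 ± 0.16.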

How the data were processed

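RNA-seq and Ribo-seq of E15.5 mouse cerebral cortex were analysed, with 3 libraries per group and assay. The authors deposited gene-level read counts of both assays, RNA-seq FPKM and Ribo-seq RPKM, the last 2 scaled by gene length and library depth. Per the labels, the submitters' processing notes name HISAT2 2.0.5, TopHat2, HTSeq, DESeq2 1.14.1 and build mm10. Strand settings of the counting were not given in the sources used here. Ribo-seq counts of 40490 genes, *Fat2* among them, are blank in 8 libraries and were left out. No column (0) lacked a sample.

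Members were matched by symbol through the gene name table. Counts as deposited were filtered (filterByExpr, minimum count 10, minimum total 15), TMM-scaled and tested per contrast with edgeR 4.0.16 (R 4.3.3) by the quasi-likelihood test, with Benjamini-Hochberg adjustment over all genes tested and calls at adjusted *P* under 0.05. For TE, 1 fit over 12 libraries tested the assay-by-genotype interaction. Single values were compared with the two-sided exact permutation test (scipy 1.17.1). DESeq2 1.42.0 and other settings were alternatives. The fits were also run on simulated counts, and no result here rests on them. That simulation did not imitate a single deviating library such as Ribo-seq *F*-cKO replicate 2.

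The members and gene lists were chosen with earlier results of these data known. Named are the members, the targeted genes, markers, up to 3 called genes per direction, list and contrast with the smallest adjusted *P*, and for members with a mean of at least 1 FPKM the 3 genes most correlated in log2 CPM (prior count 2) over 9 RNA-seq libraries. Replicate numbers were not taken as pairs. A marker of the planned cortical list is not reported here and was left out of its sum. Intervals in log2 are nominal 95% intervals from the SE by a normal approximation. With so few libraries they are narrower than the edgeR test implies. For *Celsr3* in *M*-cKO footprints the interval was 0.03 to 0.53 at an unadjusted *P* of 0.0581 (edgeR).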

Additional observations from a re-analysis of the deposited data

Results flagged for a closer look

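The RNA effects of the knockouts differed from each other for 4 members when *M*-cKO was set directly against *F*-cKO (edgeR quasi-likelihood test across all genes, Benjamini-Hochberg adjustment). The log2 difference was −1.16 for *Celsr1*, −0.80 for *Fat3*, −0.59 for *Fat4* and −0.33 for *Celsr2*. All 3 *M*-cKO libraries lay below all 3 *F*-cKO libraries for each of the 4, and each stayed called with any 1 library left out. Of all genes, 14.3% were called lower and 21.4% lay wholly lower in this contrast, and of the genes over 10 kb, the length class of the members, 37.2% were called lower. The contrast shares its *F*-cKO libraries with the comparison from which the family was proposed.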

How the results depend on the processing

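The number of members called was within 1.5 times the reported one under DESeq2, RLE scaling, no low-count filter, 1 fit of all 9 libraries of an assay and protein-coding genes only, in each contrast where the setting was run. With 1 library left out it was 4 to 5 higher for *F*-cKO RNA, 1 to 4 higher for *M*-cKO RNA, where *Dchs1* left the call without Ctrl replicate 1 or 3 and *Celsr2* without Ctrl replicate 1 or 3 or *M*-cKO replicate 1 or 3, *Fat3* (0.22) and *Dchs2* (0.97) joined it without *M*-cKO replicate 3, and 4 lower for *M*-cKO against *F*-cKO RNA. The shares of all genes called the same way then ran from 5.69% to 10.8%, from 11.8% to 14.9% and from 7.7% to 12.9%. Direction changed with 1 library left out for differences that were not called. The ranges in *F*-cKO TE were *Celsr1* −0.81 to 1.94, *Celsr2* −0.41 to 2.00, *Dchs1* −0.23 to 1.99, *Dchs2* −0.11 to 0.69, *Fat1* −0.30 to 2.22, *Fat3* −0.73 to 1.55, *Fat4* −0.56 to 2.14. The ranges for *M*-cKO against *F*-cKO footprints were *Celsr2* −2.23 to 0.18, *Celsr3* −1.86 to 0.49, *Dchs1* −1.88 to 0.34, *Dchs2* −0.26 to 0.28, *Fat1* −2.07 to 0.46, *Fat3* −2.21 to 0.07, *Fat4* −2.70 to 0.00. The ranges in *F*-cKO footprints were *Celsr3* −0.18 to 2.16, *Dchs1* −0.11 to 2.11, *Fat4* −0.06 to 2.64. The ranges in *M*-cKO TE were *Dchs1* −0.07 to 0.06, *Dchs2* −0.53 to 0.28, *Fat1* −0.04 to 0.33, *Fat3* −0.06 to 0.34, *Fat4* −0.04 to 0.07. The range for *M*-cKO against *F*-cKO RNA was *Fat1* −0.08 to 0.07. *Fat1* in *M*-cKO against *F*-cKO RNA was 0.00 without the filter on low counts, and *Dchs1* in *M*-cKO TE was 0.02 with protein-coding genes only and 0.02 with the filter applied within each assay, an alternative chosen after seeing the data. The causes were not tested.

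Same-numbered libraries did not deviate together (correlations of −0.28 to 0.16), so the replicate numbers are not taken as pairs. With the replicate number as a block, 2 members were called higher in *M*-cKO RNA, *Celsr2* no longer being called, and 5 in *F*-cKO RNA and 4 lower in *M*-cKO against *F*-cKO RNA, as without it. Of all genes, 14.2%, 7.52% and 11.2% were called in these directions with the block. It left 0 members called in every footprint and TE contrast, beside 4.76% of all genes higher and 4.46% lower for *M*-cKO footprints and 0.0698% and 0.0489% for *M*-cKO TE.

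With 3 libraries a group, and 1 *F*-cKO Ribo-seq library far from the others, no difference in *F*-cKO footprints or TE was called. *Dchs2* rests on 17 to 62 reads a library.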
